A study of Mus musculus with 4 samples.

Results

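The genes described here are 39 genes of fatty acid oxidation, taken by name: those that activate fatty acids, carry them into mitochondria on carnitine, oxidise them in mitochondria and peroxisomes, or hydrolyse their coenzyme A esters. All 39 were found among the 25522 genes listed without and the 26085 genes listed with tetracycline, and all 39 carried an adjusted p in both tables. The RNA came from crypts of the small intestine, the pits of the gut lining that hold its stem cells, of male C57BL/6J mice 9 weeks old. Mice were fed or fasted for 24 hours, either without tetracycline or after 21 days of this antibiotic, which the series gives as a means to deplete what it abbreviates as AKK. The labels list 4 groups with 1 sample each, namely fed without, fasted without, fed with and fasted with tetracycline; no genotype or allele is named. The deposited material was 1 table of fasting changes for each antibiotic state, and the mouse numbers behind a library, or any pooling, are not stated.

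Fatty acid oxidation starts when acyl-CoA synthetases join a fatty acid to coenzyme A. The carnitine shuttle then moves long chains through the inner mitochondrial membrane, and a cycle of dehydrogenation, hydration, a second dehydrogenation and thiolysis shortens them by acetyl-CoA units, while peroxisomes start on very long or branched chains. Thioesterases release free coenzyme A from acyl-CoA. Many of these genes are known targets of the PPAR family of lipid-sensing nuclear receptors and rise with fasting in liver, and gut epithelium meets fatty acids both from the lumen and from the blood.

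The means in each table are sums of whole counts scaled by library, and the counts of single libraries could be read back from them. They came from 4 libraries per table, 2 fasted and 2 fed, where the labels list 1 sample per group. On each side the library with the larger size factor is numbered 1, and none can be tied to a labelled sample. The counts of the genes read back totalled 41162188 to 57180075 per library. All 39 members were read back with and 37 without tetracycline, the others being Hadh and Ucp2. Values per library below are normalized counts (counts over the library's size factor) and carry no SD or test. Changes are log2 fasted over fed, and a gene is called to rise or fall where the deposited adjusted p is under 0.05; these p-values measure the spread between libraries, which may be technical. The tables do not state the direction of the change; it was read from the order in which their names give the groups, and every direction below depends on it.

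The label of crypt epithelium was checked against marker genes. The 4 of 7 epithelial keratin, claudin and cadherin markers that could be read back in both tables summed to between 143990.4 and 207189.9 normalized counts in the 8 libraries, and all 5 stem cell markers were listed without a library at 0. Markers of mature enterocytes had high means too. Without tetracycline the 11 listed ranged from 18258 normalized counts for Treh to 390480 for Apoa4. The 5 stem cell markers ranged from 647 for Ascl2 to 63881 for Olfm4. These means are not scaled by transcript length. The markers thus show epithelium with many enterocyte transcripts and do not show that the crypts were free of mature enterocytes. The libraries differed in their marker sums. With tetracycline, 4 mature enterocyte markers (Ada, Lct, Slc5a1 and Treh) summed to 55034 in fasted library 1 and 359526 in fasted library 2, against 155569.5 and 143493 in the fed libraries. Without tetracycline they summed to 368401 and 131192 in the fasted and 128235 and 211408 in the fed libraries. Stem cell markers summed to 90564 and 23269 in the fasted and 49136 and 101869 in the fed libraries with tetracycline. The Paneth cell markers Ang4, Itln1 and Mmp7 summed to 273690.1 and 47701 in the fasted and 58403 and 80865 in the fed libraries with tetracycline. Among markers of other cells without tetracycline, 4 of 5 Paneth cell genes were called higher, and 3 of 6 stromal, 2 of 6 lymphocyte, 1 of 5 myeloid, 1 of 5 goblet cell and 2 of 2 erythrocyte genes lower in the fasted state; over all tested genes, 1.06% were called higher and 2.27% in either direction. With tetracycline 0 of these lists' genes were called by DESeq2, and an unadjusted p under 0.05 was listed for 1 Paneth cell gene (higher) and for 2 stromal, 3 lymphocyte, 3 myeloid, 0 goblet cell and 1 erythrocyte genes (lower), against 5.34% of all tested genes in either direction. All 5 proliferation markers (Ccnb1, Mcm2, Mki67, Pcna and Top2a) had a change below 0 in both tables, with medians of -0.63 without and -0.43 with tetracycline; 0 were called by DESeq2, and 2 without and 0 with tetracycline had an unadjusted p under 0.05. The globin genes Hba-a1 and Hbb-bt stood at -2.64 (adjusted p = 2.29e-06) and -3.13 (adjusted p = 0.0241) without tetracycline in log2 units of the authors' deposited table. Their part in the changes below was not tested. Of the adipocyte markers, Adipoq and Plin1 had a library at 0 in both tables and Lep was not listed, while Cidec had means of 3926 and 4018 and Plin4 of 13.4 and 17.8 normalized counts, with no library at 0. Of the hepatocyte markers Fga had a library at 0 in both tables, and the means of the others without tetracycline were 113807 for Apob, 64173 for Cps1, 498 for Ttr, 51.9 for Alb and 31.9 for Serpina1a. The list was thus split, and the levels of Apob and Cps1 alone cannot be read as liver RNA. Apob was called higher without tetracycline, at 1.41 (adjusted p = 0.0370) in the authors' deposited table, and 0 hepatocyte markers were called with it by DESeq2, where 0 also had an unadjusted p under 0.05. In bulk RNA, more cells of a type and more RNA per cell cannot be told apart.

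Without tetracycline, fasting raised 10 of the 39 members (25.6%) and lowered 0 by the authors' DESeq2 test, where 1.06% of all tested genes were called higher and 2.27% were called in either direction. The 10 were Acot1, Acot2, Eci2, Acadl, Hadhb, Acaa1b, Acsl1, Slc25a20, Pex11a and Hadha, in order of change. Among tested genes with a mean of at least 1000 normalized counts, the share called higher was 1.25%. The median change over the 39 members was 0.56 in the authors' deposited table, against 0.01 over all tested genes, and 33 members (84.6%) lay above 0, against 50.5% of all tested genes. Without Acot1 to Acot4, Acaa1a and Acaa1b, whose copies share sequence, the median was 0.33. An unadjusted p under 0.05 was listed for 19 members, all with a change above 0, against 10.8% of all tested genes in either direction. Of 37 members read back, 25 had both fasted libraries above both fed ones (21.7% of all tested genes) and 2 had both below (22.9%). With a gap of at least 0.5 on the log2 scale between the groups, 11 members were above (5.09% of all tested genes) and 0 below.

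**Figure D1:**
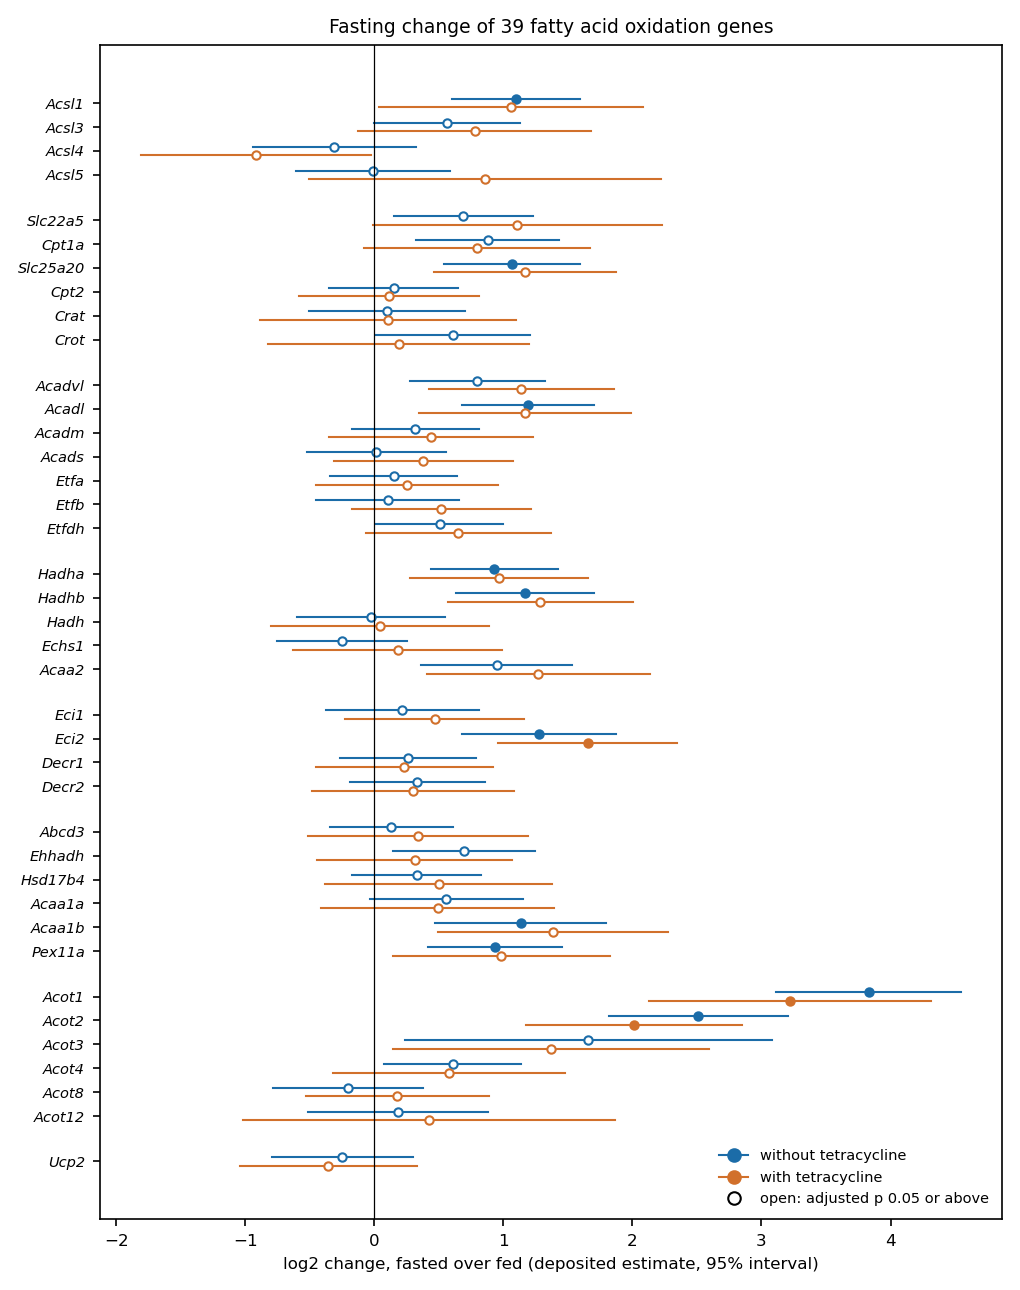
Log2 change, fasted over fed, of the 39 members in their role groups from activation (top) to uncoupling (bottom), with 95% intervals, without (blue) and with (orange) tetracycline; filled points are called at an adjusted p under 0.05. Acot1 and Acot2 lie farthest to the right in both tables, and Acsl4 and Ucp2 are the members left of 0 in both.

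The first step, activation, is the work of the long-chain acyl-CoA synthetases. Acsl1 (chr8:46471037-46536051, GRCm38), the form most often tied to fatty acid oxidation, read 9666 and 11511 in the fasted and 4845 and 5053 in the fed libraries. The groups did not overlap, and the change in the authors' deposited table was 1.10 (adjusted p = 0.00159, SE 0.253). Acsl3, a synthetase of lipid droplets, read 2233 and 3148 in the fasted and 1965 and 1673 in the fed libraries, also without overlap, and in the authors' deposited table its change of 0.56 (adjusted p = 0.467, SE 0.289) was not called. Acsl5, the most abundant of the 4 per kilobase of transcript, read 71709 and 44365 in the fasted and 53222 and 63751 in the fed libraries. These overlap, and its change in the authors' deposited table was -0.01 (adjusted p = 0.995, SE 0.305). Acsl4, which prefers arachidonic acid, read 246 and 290.4 in the fasted and 348 and 315 in the fed libraries. It was lower in both fasted libraries, with a change in the authors' deposited table of -0.31 (adjusted p = 0.852, SE 0.322), and is the least abundant synthetase.

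Of the 6 carnitine genes, all had a change above 0 (50.5% of all tested genes did) and 1 was called higher (1.06% of all tested genes were). Slc25a20, the carnitine-acylcarnitine translocase of the inner mitochondrial membrane, read 9156 and 10495 in the fasted and 4054 and 5316 in the fed libraries. Both fasted libraries were above both fed ones, with a change of 1.07 (adjusted p = 0.00611, SE 0.270) in the authors' deposited table. Cpt1a, which makes acylcarnitine at the outer membrane and controls entry of long chains, read 18321 and 24000.4 in the fasted and 13040.2 and 9992 in the fed libraries. The groups did not overlap here either, but the authors' deposited table gives 0.88 (adjusted p = 0.0678, SE 0.281), just outside the threshold. Slc22a5, the plasma membrane carnitine transporter, stood at 0.69 (adjusted p = 0.229, SE 0.275) in the authors' deposited table, and Crot, the peroxisomal carnitine octanoyltransferase, at 0.61 (adjusted p = 0.438, SE 0.305). Cpt2, which returns the acyl group to coenzyme A inside the mitochondrion, and Crat, the carnitine acetyltransferase, had changes of 0.15 and 0.10 in the authors' deposited table, and their groups overlapped.

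Among the 7 genes of the first dehydrogenation and its electron transfer, 1 was called higher, where 1.06% of all tested genes were, and all changes were above 0, where 50.5% were. Acadl, the long-chain acyl-CoA dehydrogenase, read 16965 and 19577 in the fasted and 7155 and 8874 in the fed libraries. The lower fasted library stood well above the higher fed one, and the change in the authors' deposited table was 1.19 (adjusted p = 0.000735, SE 0.262). Acadvl, its very-long-chain counterpart in the inner membrane, read 22169 and 28160.2 in the fasted and 13281 and 15655 in the fed libraries, without overlap. Its change in the authors' deposited table was 0.80 (adjusted p = 0.0885, SE 0.266), not called. The medium-chain and short-chain enzymes Acadm and Acads stood at 0.32 and 0.02 in the authors' deposited table; whether they differ from the long-chain ones was not tested. Etfa and Etfb, the subunits of the flavoprotein that takes the electrons, had 0.15 and 0.11 in the authors' deposited table, and Etfdh, which passes them to ubiquinone, had 0.51 (unadjusted p = 0.0427, SE 0.250).

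The later steps of the mitochondrial cycle hold the trifunctional protein, whose alpha subunit Hadha carries the hydratase and dehydrogenase and whose beta subunit Hadhb carries the thiolase for long chains. Both subunits rose. Hadha read 44978 and 52569 in the fasted and 24369 and 26826 in the fed libraries, and Hadhb read 26169 and 36309 in the fasted and 13379 and 14477 in the fed libraries. In each gene the fasted libraries were above the fed ones, 1.91-fold in the mean for Hadha and 2.24-fold for Hadhb. The changes in the authors' deposited table were 0.93 (adjusted p = 0.0133, SE 0.250) for Hadha and 1.17 (adjusted p = 0.00214, SE 0.273) for Hadhb. Acaa2, a thiolase of medium and long chains, read 29606 and 41146 in the fasted and 15309.8 and 21367 in the fed libraries, and its change in the authors' deposited table of 0.95 (adjusted p = 0.0576, SE 0.297) lay just outside the threshold. Echs1, the short-chain hydratase, was lower in both fasted libraries at 6101 and 6590.2 in the fasted and 6799 and 8277 in the fed libraries, with -0.25 (adjusted p = 0.849, SE 0.257) in the authors' deposited table. Hadh, the short-chain hydroxyacyl-CoA dehydrogenase and the most abundant member per kilobase, had a change of -0.02 in the authors' deposited table.

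The genes of the trifunctional protein lie head to head on chromosome 5, Hadha on the minus strand (chr5:30118304-30155162) and Hadhb on the plus strand (chr5:30155248-30184593, GRCm38), with 85 bases between their starts. As both genes rose together, the stretch they share is printed from the RefSeq promoter window of Hadhb, chr5:30155003-30155302 on the plus strand of GRCm38.p6, 5′ to 3′, with those 85 bases in capitals. The lower-case bases before them lie within Hadha on the other strand, and those after them within Hadhb.
Hadhb: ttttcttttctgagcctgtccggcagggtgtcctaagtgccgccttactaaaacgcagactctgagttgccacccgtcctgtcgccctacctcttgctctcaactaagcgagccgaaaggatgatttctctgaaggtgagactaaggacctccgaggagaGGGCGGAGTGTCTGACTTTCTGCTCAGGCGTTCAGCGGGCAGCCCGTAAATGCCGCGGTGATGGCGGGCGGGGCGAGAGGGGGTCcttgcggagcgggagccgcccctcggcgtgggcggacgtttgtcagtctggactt

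Of the 4 auxiliary enzymes that handle double bonds, 1 was called higher, against 1.06% of tested genes as a whole. Eci2, an enoyl-CoA isomerase found in mitochondria and peroxisomes, read 7494 and 11805 in the fasted and 3599 and 4379 in the fed libraries. Its groups did not overlap, although the fasted libraries differed 1.58-fold, and the change in the authors' deposited table was 1.27 (adjusted p = 0.0028, SE 0.304). An exon of Eci2 is overlapped by the gene model Gm16984, and the library kit did not keep the strand. Reads of the 2 thus cannot be told apart by strand where they overlap, and the share of reads concerned was not measured. The same holds for the called members Hadha (overlapped by Garem2), Acsl1 (Gm45244) and Acaa1b (Dlec1). The mitochondrial isomerase Eci1 and the dienoyl-CoA reductases Decr1 (mitochondrial) and Decr2 (peroxisomal) had 0.22, 0.26 and 0.33 in the authors' deposited table.

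All 6 peroxisomal members had both fasted libraries above both fed ones without tetracycline, where 21.7% of all tested genes did, and 2 were called higher, where 1.06% were. With tetracycline 3 of the 6 did, against 16.0% of all tested genes, and the libraries of the other 3 overlapped; 0 were called by DESeq2, and 2 had an unadjusted p under 0.05, as 5.34% of all tested genes did. Pex11a, which acts in the elongation and division of peroxisomes, read 4977 and 4316 in the fasted and 2187 and 2674 in the fed libraries, and the authors' deposited table gives 0.93 (adjusted p = 0.0236, SE 0.265). Acaa1b, a peroxisomal thiolase, read 5725 and 6043 in the fasted and 1828 and 3530.4 in the fed libraries. Its fed libraries differed 1.93-fold, and its change in the authors' deposited table was 1.13 (adjusted p = 0.0376, SE 0.337). With no filter on low means the call was lost, at an adjusted p of 0.0530 by Benjamini-Hochberg. Its copy Acaa1a read 24342 and 20462 in the fasted and 11761 and 18687 in the fed libraries and was not called, with 0.56 (adjusted p = 0.512, SE 0.302) in the authors' deposited table. Of the 31-base words in Acaa1b transcripts, 45.7% also occur in Acaa1a, so the split of reads between the copies is uncertain. The sum of both was 1.58-fold higher in the fasted than in the fed libraries without tetracycline. With tetracycline it read 22221 and 39911 in the fasted and 22450.2 and 17328 in the fed libraries, which overlap. The bifunctional enzymes Ehhadh and Hsd17b4 stood at 0.70 (unadjusted p = 0.0128, SE 0.280) and 0.33 (unadjusted p = 0.202, SE 0.256) in the authors' deposited table, and the fatty acid transporter Abcd3 at 0.13.

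The largest changes among the members were in 2 acyl-CoA thioesterases. Acot1, the cytosolic form, read 8555 and 17339 in the fasted and 744 and 1076 in the fed libraries. Its change in the authors' deposited table was 3.83 (adjusted p = 2.1e-22, SE 0.365), a 14.2-fold difference of the group means. Acot2, the mitochondrial form, read 4431 and 7965 in the fasted and 857 and 1318 in the fed libraries, and its change in the authors' deposited table was 2.51 (adjusted p = 1.02e-09, SE 0.353), or 5.70-fold. For both genes the lower fasted library was several times the higher fed one, while the fasted libraries themselves differed 2.03-fold for Acot1 and 1.80-fold for Acot2. Without fasted library 2 the change of Acot1 was 3.23. Of the 31-base words of Acot1, 28.9% occur in Acot2, and 29.9% of those of Acot2 in Acot1. Their sum, which a different split of reads between these 2 leaves as it is, read 12986 and 25304 in the fasted and 1602 and 2394 in the fed libraries, 9.58-fold higher in the fasted. Acot1 also shares 13.0% of its words with Acot5 and 11.9% with Acot3, and Acot2 shares 7.97% with Acot5 and 7.79% with Acot4. A split with those genes could change the sum of the pair. Summed over Acot1 to Acot4, the fasted libraries were 4.97-fold higher.

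The other 4 thioesterases were not called. Acot4, a peroxisomal form, read 3811 and 4302 in the fasted and 2302 and 3026 in the fed libraries, without overlap, and the authors' deposited table lists 0.61 (unadjusted p = 0.0261, SE 0.273). Acot3, also peroxisomal and the least abundant member per kilobase, read 46.8 and 95.7 in the fasted and 9.92 and 35.2 in the fed libraries. Its change of 1.66 (unadjusted p = 0.0223, SE 0.726) in the authors' deposited table was not called, at an adjusted p of 0.318. Acot8 and Acot12, a peroxisomal and a cytosolic thioesterase, had -0.21 and 0.19 in the authors' deposited table, with overlapping libraries. Ucp2, an inner-membrane carrier named for uncoupling, had -0.25 (unadjusted p = 0.371, SE 0.279) in the authors' deposited table.

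Acot1 to Acot4 lie close together on the plus strand of chromosome 12, in the order Acot2 (chr12:83987861-83993873), Acot1 (chr12:84009490-84018371), Acot4 (chr12:84038379-84048601) and Acot3 (chr12:84052144-84060402, GRCm38). As the change without tetracycline ranged from 0.61 to 3.83 among these neighbours, the RefSeq windows (GRCm38.p6, plus strand) around the starts of 3 of them are printed 5′ to 3′: chr12:84009252-84009551 for Acot1, chr12:83987611-83987910 for Acot2 and chr12:84038129-84038428 for Acot4. Capitals mark the nuclear receptor half-site AGGTCA on either strand.
Acot1: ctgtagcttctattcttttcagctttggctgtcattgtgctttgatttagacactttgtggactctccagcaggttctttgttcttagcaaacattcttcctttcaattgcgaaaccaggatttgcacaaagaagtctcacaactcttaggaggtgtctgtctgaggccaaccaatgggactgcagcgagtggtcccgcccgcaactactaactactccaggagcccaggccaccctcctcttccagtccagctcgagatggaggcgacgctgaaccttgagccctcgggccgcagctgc
Acot2: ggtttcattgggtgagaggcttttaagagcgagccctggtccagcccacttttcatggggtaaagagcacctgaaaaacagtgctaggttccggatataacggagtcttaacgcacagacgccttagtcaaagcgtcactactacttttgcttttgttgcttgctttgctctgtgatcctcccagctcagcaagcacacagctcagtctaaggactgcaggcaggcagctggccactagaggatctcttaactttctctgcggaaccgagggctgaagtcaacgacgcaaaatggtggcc
Acot4: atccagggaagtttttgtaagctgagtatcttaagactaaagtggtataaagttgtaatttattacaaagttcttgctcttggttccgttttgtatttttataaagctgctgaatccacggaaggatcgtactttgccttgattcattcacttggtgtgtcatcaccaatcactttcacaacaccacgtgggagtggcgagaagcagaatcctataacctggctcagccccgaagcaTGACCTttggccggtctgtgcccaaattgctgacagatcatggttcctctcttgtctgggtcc
Of these 3 windows only that of Acot4 held the half-site. RefSeq held 38 such windows for 35 of the 39 members, each 300 bases long, and both strands were searched. The half-site was in 8 of the 38 windows (21.1%), against 16.3% of all 32851 windows; the 7 members were Acadm, Acadvl, Acot12, Acot3, Acot4, Cpt1a and Echs1. The direct repeat AGGTCANAGGTCA, which holds that half-site at both ends, was in 0 member windows and 0.0396% of all. The looser repeat AGGNCANAGGNCA was in 0 member windows and 0.381% of all. No match says only that these letters are not in the windows.

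**Figure D2:**
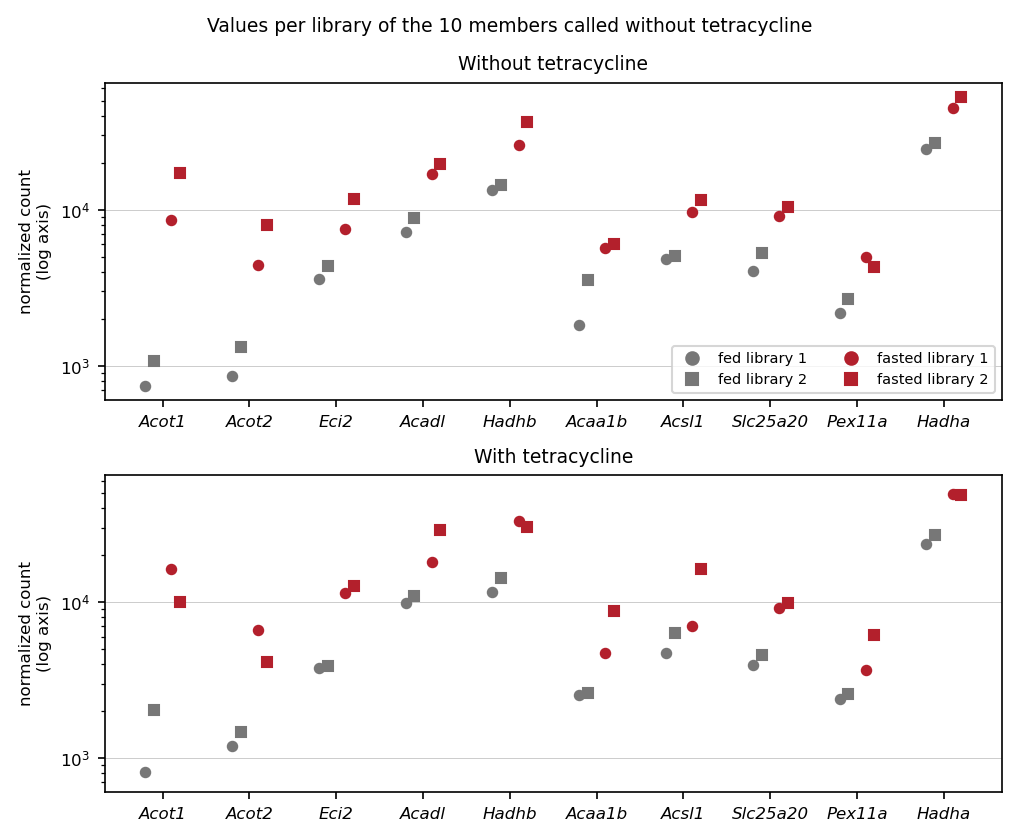
Normalized counts (log axis) of the 10 members called without tetracycline, in each library of the 2 tables; grey is fed and red is fasted, circles are library 1 and squares library 2. In all 10 genes and both tables the 2 red points lie above the 2 grey points.

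With tetracycline, 3 of the 39 members (7.69%) were called higher and 0 lower by the same test, against 0.333% of all tested genes called higher, 0.335% of those with a mean of at least 1000 and 0.6% called in either direction. The 3, Acot1, Acot2 and Eci2, were also called without tetracycline, and 0.25% of genes tested in both tables were called higher in both. The median member change in the authors' deposited table was 0.52, against -0.02 over all tested genes, and 37 members (94.9%) had a change above 0, against 48.2%. An unadjusted p under 0.05 was listed for 14 members, 13 of them with a change above 0 and Acsl4 below it, against 5.34% of all tested genes. Both fasted libraries were above both fed ones for 26 of the 39 members (16.0% of all tested genes) and below for 2 (15.5%). With a gap of at least 0.5 between the groups, 12 were above (3.16% of all tested genes) and 0 below. Standard errors were wider: the median member SE was 0.428, against 0.279 without tetracycline.

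Acot1 with tetracycline read 16399 and 10071 in the fasted and 814 and 2027 in the fed libraries. The groups were again far apart, with a change in the authors' deposited table of 3.22 (adjusted p = 8.28e-06, SE 0.559), and without fed library 2 the change was 4.02. Acot2 read 6584 and 4149 in the fasted and 1196 and 1468 in the fed libraries, and the authors' deposited table gives 2.01 (adjusted p = 0.00109, SE 0.428). For both genes fasted library 1 was the higher one here. The sum of the pair read 22983 and 14220.4 in the fasted and 2010.4 and 3495 in the fed libraries, 6.76-fold higher in the fasted. Summed over Acot1 to Acot4, which also share sequence, the fasted libraries were 3.95-fold higher. Eci2 read 11392 and 12704 in the fasted and 3785 and 3875 in the fed libraries, with the least spread between libraries of these 3, and its change in the authors' deposited table was 1.65 (adjusted p = 0.00111, SE 0.353).

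The other 7 members called without tetracycline also had fasted libraries above fed ones with it, as 16.0% of all tested genes did, but were not called. Hadhb read 32945 and 30491 in the fasted and 11623 and 14357 in the fed libraries, with 1.29 (adjusted p = 0.0605, SE 0.365) in the authors' deposited table, the nearest to the threshold. Hadha read 49388 and 48748 in the fasted and 23455 and 26813 in the fed libraries, and the authors' deposited table gives 0.97 (adjusted p = 0.397, SE 0.353). Slc25a20 stood at 1.17 (adjusted p = 0.128, SE 0.359) and Acaa1b at 1.39 (adjusted p = 0.21, SE 0.454) in the authors' deposited table. Acadl read 18027 and 28788 in the fasted and 9866 and 10954 in the fed libraries, with 1.17 (adjusted p = 0.354, SE 0.418) in the authors' deposited table. Acsl1 read 6985 and 16236 in the fasted and 4748 and 6379 in the fed libraries and Pex11a read 3678 and 6125 in the fasted and 2379.8 and 2572 in the fed libraries. In the authors' deposited table these came to 1.06 (adjusted p = 0.91, SE 0.522) for Acsl1 and 0.98 (adjusted p = 0.751, SE 0.430) for Pex11a. For Acadl, Acsl1 and Pex11a fasted library 2 was 1.60-, 2.32- and 1.67-fold above fasted library 1.

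All 7 dehydrogenation and electron transfer genes had fasted libraries above fed ones with tetracycline, against 16.0% of all tested genes, and 4 of the 7 did without tetracycline, against 21.7%. In the other groups with tetracycline, the members with fasted libraries above were 2 of 4 for activation, 3 of 6 for carnitine import, 3 of 5 for hydration to thiolysis, 3 of 4 for auxiliary enzymes, 3 of 6 for peroxisomal oxidation and 5 of 6 for hydrolysis. Of the dehydrogenases, Acadvl read 26626 and 30656 in the fasted and 11859 and 14126 in the fed libraries, with 1.14 (adjusted p = 0.184, SE 0.365) in the authors' deposited table. Acaa2 read 36446 and 64239 in the fasted and 19497 and 22207 in the fed libraries and had 1.27 (adjusted p = 0.302, SE 0.442) in the authors' deposited table. Acsl4 was below in both fasted libraries, at 327 and 239 in the fasted and 635 and 435 in the fed libraries, and the authors' deposited table lists -0.92 (unadjusted p = 0.0443, SE 0.456). Ucp2 was also below, at 60885 and 62906 in the fasted and 83549.9 and 75014 in the fed libraries, with -0.36 (unadjusted p = 0.308, SE 0.350) in the authors' deposited table. Both had a change below 0 in both tables, and neither was called.

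The 2 fasted libraries with tetracycline differed from each other. Fasted library 2 was the higher for 30 of 39 members, and for 20 of 39 they differed by over 1.5-fold, against 7 of 37 without tetracycline. Library 2 was the higher for most members on the other sides too. These were 26 of 37 in the fasted and 34 of 37 in the fed state without tetracycline, and 32 of 39 in the fed state with it. The shares over all genes are not given here. Acsl5 read 26796 and 133930.0 in the fasted and 40733 and 47797 in the fed libraries. One fasted library was thus below and the other above both fed ones. Acot12 followed the same order at 820.4 and 4807 in the fasted and 2264 and 1937 in the fed libraries, as did Crot at 8117 and 19543 in the fasted and 12006 and 12260.1 in the fed libraries and Crat at 5977 and 13651 in the fasted and 9567 and 8659.9 in the fed libraries. Slc22a5 read 3852 and 11396 in the fasted and 3407 and 3663 in the fed libraries, with library 2 alone far from the fed values. Relative to the fed mean of the same table, over the 37 members read back in both tables, the median log2 value was 0.32 in fasted library 1 and 0.85 in fasted library 2, against 0.54 and 0.56 without tetracycline; 29 and 36 of these members were above that mean with and 31 and 31 without. Over all members, the median change with tetracycline was 0.25 without fasted library 2 and 0.76 without fasted library 1. Calls were not recomputed without a library, since no count model was run.

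With tetracycline, fasted library 2 also had the higher mature enterocyte sum, 6.53-fold, and the lower stem cell sum, at 0.257 of the other. Without tetracycline, the enterocyte sum was 2.81-fold higher in fasted library 1, while fasted library 2 was the higher for 26 of 37 members. On the 3 sides where the enterocyte sum differed by over 1.5-fold between the libraries (both fasted sides, and fed without tetracycline), 11 of 37 members (29.7%) had the same order as that sum every time, against 22.9% of all tested genes. The 11 were Abcd3, Acaa1a, Acot12, Acot8, Acsl5, Crat, Crot, Decr2, Hsd17b4, Pex11a and Slc22a5. The opposite order every time was seen for Acsl3, Acsl4 and Cpt1a (8.11%), where the share over all tested genes was 23.3%. Of the called members, Pex11a had the same order every time and 0 had the opposite order every time; the share taken by cell makeup in any change was not tested. The mature enterocyte list of 11 genes had 8 changes above 0 in each table, with medians of 0.58 and 0.82 in the authors' deposited tables and 1 and 0 genes called higher, the 1 being Fabp1.

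**Figure D3:**
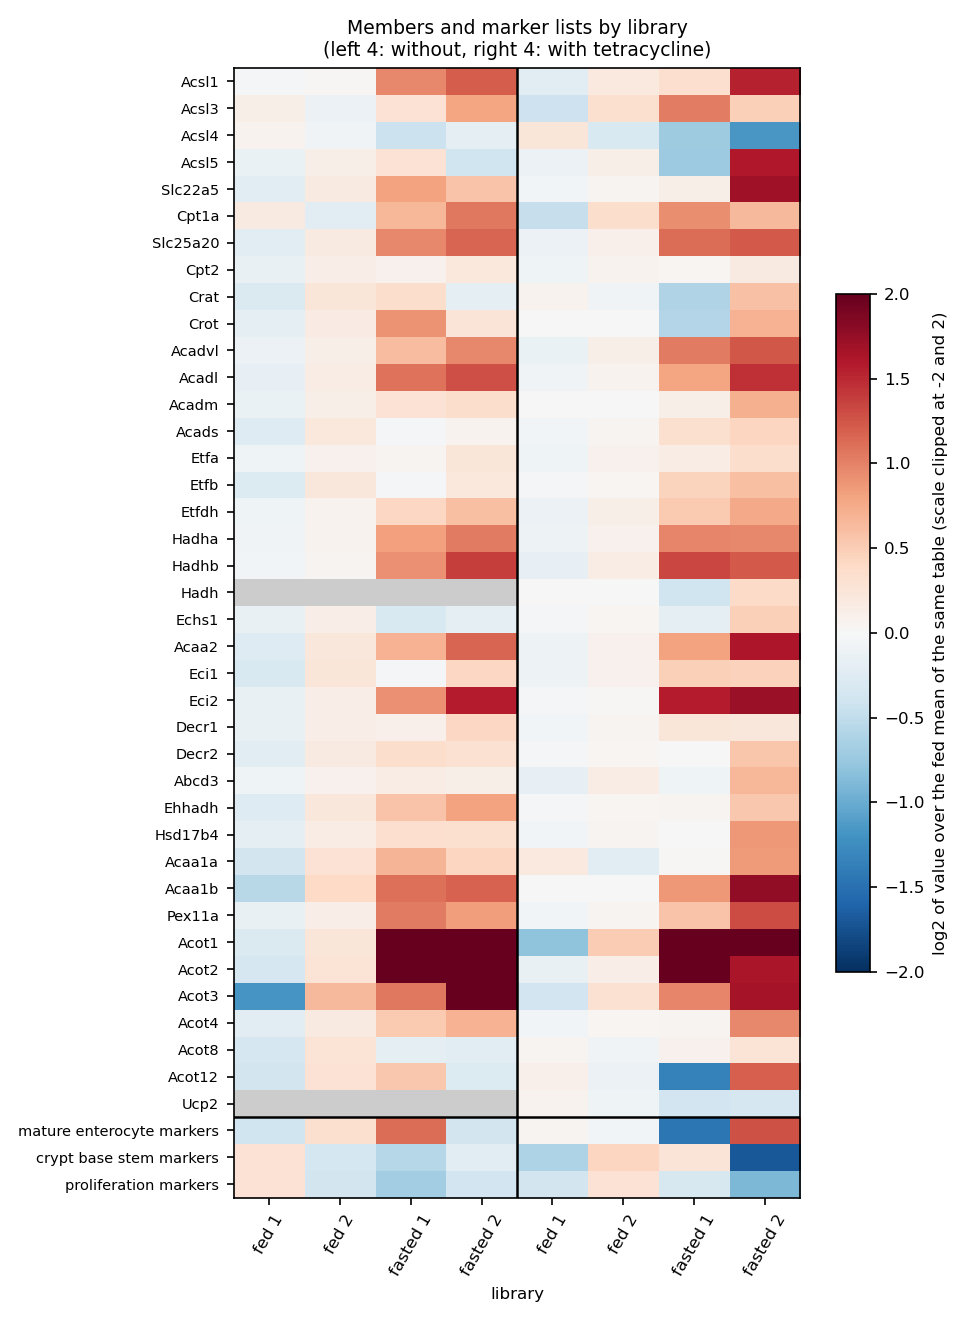
Each member (rows, in role order) and 3 sums of marker genes (bottom rows) in each library (columns), as log2 of the value over the fed mean of the same table; red is above, blue is below and grey was not read back. Fasted columns of Acot1, Acot2, Eci2 and Hadhb are red in both tables, whereas Acsl5, Crat, Crot and Acot12 differ in sign between the 2 fasted libraries with tetracycline, as the mature enterocyte row does.

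The comparison of the tables asked whether the fasting change of a member differed with tetracycline. The difference of the 2 deposited changes was tested per gene with a Wald test over 17571 genes, with p-values adjusted by Benjamini-Hochberg. Of the 39 members 0 were called, against 0.0228% of all genes tested, and 0 had an unadjusted p under 0.05. The lowest unadjusted p by that test was 0.251, for Acsl5, whose change was 0.87 larger with tetracycline (95% interval -0.62 to 2.36). The difference, with minus without tetracycline, was -0.61 for Acot1 (interval -1.92 to 0.70) and -0.50 for Acot2 (interval -1.59 to 0.59). For Eci2 the difference was 0.38 (interval -0.53 to 1.29), and for Hadha it was 0.04 (interval -0.81 to 0.88). The median interval, which is not adjusted for the number of genes, reached 0.98 to either side on the log2 scale. Smaller differences were not detectable for most members. A call after adjustment over 17571 genes needs a larger difference still, so differences above 0.98 may also have gone uncalled. The change was larger with tetracycline for 24 of the 39 members (8790 of all 17571 genes tested) and larger without for 15. Both fasted libraries were above both fed ones in both tables for 20 members, against 6.62% of genes read back in both.

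**Figure D4:**
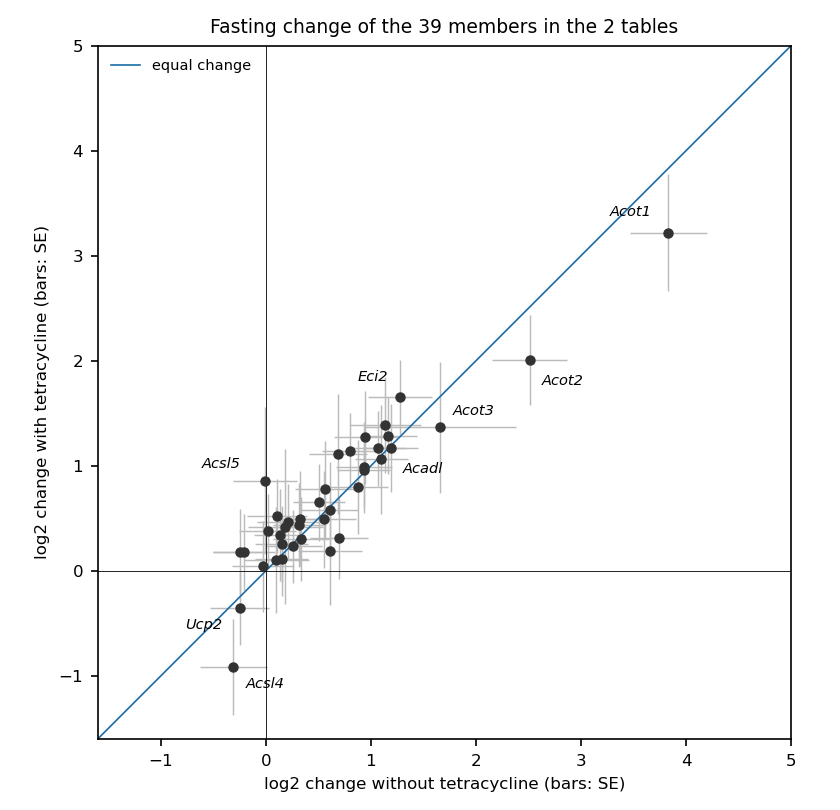
Log2 change of each member without (horizontal axis) and with (vertical axis) tetracycline, bars are 1 SE, and the blue line marks equal change. The points follow the line, with Acsl5 above it and Acot1 and Acot2 below it, each with bars that leave the difference uncalled.

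Levels in the 2 antibiotic states were set against each other across separately scaled tables, centred on the median of all genes, with no test. In fed mice the median member log2 ratio, with over without tetracycline, was -0.07, and 14 members were higher and 25 lower. It ranged from -0.46 for Acsl5 to 0.81 for Acot3. In fasted mice the median was 0.03, with 22 members higher and 17 lower, from -0.27 to 0.53. None of the 39 members reached a 2-fold ratio in either state. With single libraries left out the fed median lay between -0.19 and 0.10 and the fasted one between -0.08 and 0.23, so neither held its sign.

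Per kilobase of transcript, the deposited means ranked Hadh, Acaa2, Ucp2 and Acsl5 highest among the members in both tables and Acsl4 and Acot3 lowest. These means pool the fasted and fed libraries, and the order within either state alone may differ. The called member of highest level by this pooled mean was Hadhb with 11027 normalized counts per kilobase without tetracycline, against 3049.5 for Acot1 and 1659 for Acot2. The values of Acot1 and Acot2 lie between their fed and fasted levels and describe neither state.

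Other genes of the pathway were taken from a list of 62 names. Among these were Hadhsc, an older name of the member Hadh, and Mut, an older name of the listed Mmut, and neither was found. The tested genes of the list numbered 58 in each table and held no member. Of these, 8 were called higher without and 4 with tetracycline, where 1.06% and 0.333% of all tested genes were, and 0 were called lower by DESeq2. Of the 8, 4 were uptake genes, 3 regulators and well known PPAR targets and 1 mitochondrial; of the 4, 3 were regulators and targets and 1 mitochondrial. There was an unadjusted p under 0.05 for 1 lower gene without and 2 with tetracycline. Cyp4a10, a fatty acid omega-hydroxylase, had 4.18 (adjusted p = 0.00024, SE 0.867) in the authors' deposited table without the antibiotic and 3.93 (adjusted p = 9.08e-14, SE 0.454) with it. Acacb, which makes the malonyl-CoA that inhibits Cpt1a, read 2175 and 2972 in the fasted and 226 and 249 in the fed libraries without and 2561 and 1098 in the fasted and 203 and 413 in the fed libraries with tetracycline. It rose in both states, with changes of 3.44 (adjusted p = 2.99e-28, SE 0.293) and 2.57 (adjusted p = 0.0040, SE 0.589) in the authors' deposited tables. Pdk4, a kinase that restrains glucose oxidation, and Angptl4, an inhibitor of lipoprotein lipase, were also called in both; the authors' deposited tables list 2.27 and 2.16 without and 2.90 and 3.64 with tetracycline.

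The uptake genes Slc27a1 (2.07), Cd36 (1.84), Slc27a2 (1.61) and Fabp1 (1.08) were called higher in the authors' deposited table for mice without tetracycline, 4 of the 6 uptake genes on the list, and 0 of the 6 were called by DESeq2 with it, 4 having an unadjusted p under 0.05 (5.34% of all tested genes). The changes with tetracycline in the authors' deposited table were 1.52 for Slc27a1, 2.53 for Cd36, 1.74 for Slc27a2 and 0.98 for Fabp1. Over the 6 uptake genes the median change was 1.34 without and 1.25 with tetracycline. Cd36 with tetracycline read 3472 and 31897 in the fasted and 2839.6 and 3289 in the fed libraries, so that 1 of 2 fasted libraries was close to the fed ones. Of 18 further peroxisomal genes 0 were called by DESeq2 in either table, where 2 without and 2 with tetracycline had an unadjusted p under 0.05, against 10.8% and 5.34% of all tested genes. Of the 24 further mitochondrial genes tested, 1 was called higher in each table, Acacb, and 11 without and 17 with tetracycline had a change above 0, with medians of -0.05 and 0.11 in the authors' deposited tables. The median change of the 58 tested genes in the authors' deposited tables was 0.05 without and 0.12 with tetracycline, below the medians of the 39 members.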

How the data were processed

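Both files are result tables, 1 per antibiotic state; the submitters' processing notes name Salmon, DESeq2 and mm10, with roles and versions not given in the sources used here. Per the file headers, the authors' mean is a signal (the average of normalized counts over libraries), the change and its SE are log2 values, the authors' test statistic is a score, and the deposited p-values are raw and Benjamini-Hochberg adjusted. There are 0 unused columns of per-sample values.

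The deposited means have 15 significant digits and are sums of whole counts times 4 library steps, so counts of single libraries were read back by lattice search and matched to the deposited change. They served as single values only, and no count model was run. Counts were read back for 98.0% of genes without and 94.5% with tetracycline. The deposited changes were met to a median of 1.5e-10 and 9.2e-10, but only with the numerator group as the model's reference level; with the other choice the medians were 8.5e-07 and 1.9e-06. R puts levels in alphabetical order by default, which would place the fasted group there; whether the authors kept that order is not given. The rise of the members is not independent evidence for the direction.

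Calls are the authors' adjusted p under 0.05. The difference of the changes was tested by a two-sided Wald test from both SEs. Tetracycline levels used group means rebuilt from mean and change, with pseudocount 1. Full statistics were given for called members and the largest change of each role group with a mean of at least 50. Some further members were also given with a p and SE. Genes of the further pathway list were named where called. The members and lists were chosen with earlier results of these data known. Some genes of the marker and pathway lists are not reported here and enter no count or sum of those lists. Gene identifiers matched GENCODE M21 for 39 of 39 members without the version and 0 with it, so coordinates are that release's. An exon of 18 members is overlapped by another gene and the kit does not keep the strand. Scripts ran in Python 3.11.15 with numpy 2.4.6 and were tested on simulated data. Alternatives changed the threshold, the filter on low means, the scale, the copies included and the libraries.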

Additional observations from a re-analysis of the deposited data

How the results depend on the processing

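No paired analysis was possible because the labels give 1 sample per group and no replicate numbers, and the libraries read back carry none. Other thresholds, other filters on low means, log2(value + 1) and centring were tried, with each library left out in turn for values without a test. Of the alternatives for the main results, 58 left a count within 1.5 times its value or a median within the spread between libraries, and 3 did not: without the families whose copies share sequence (Acot1 to Acot4, Acaa1a and Acaa1b) the median member change without tetracycline was 0.33, and with a gap of at least 0.5 required between the groups, 11 members without and 12 with tetracycline did not overlap, against 27 and 28. Of 104 alternatives for the called genes, 26 (the filters on low means) carry an adjusted p, and 1 of these lost its call, Acaa1b with no filter on low means at an adjusted p of 0.0530 by Benjamini-Hochberg. The other 78 are values with no test. The opposite direction was seen in 0 of the 104, but this was largely fixed beforehand. The filters leave a change as it is. Leaving out a library cannot reverse it either, as both fasted libraries lay above both fed ones for every called gene. Members called numbered 7 to 13 without and 3 to 4 with tetracycline over all thresholds and filters. The shares of all genes called at the other settings are not given here. With single libraries left out, the median member change lay between 0.43 and 0.70 without and between 0.25 (without fasted library 2) and 0.76 with tetracycline, where it was 0.52. The untested tetracycline ratios changed sign with a library left out, from -0.19 to 0.10 in the fed state and from -0.08 to 0.23 in the fasted state. The joint scaling of all 8 libraries, the non-overlap counts with a library left out, the values per gene and the order of libraries beside the enterocyte sum were added after seeing the data; jointly scaled, the tetracycline ratios had medians of -0.06 (fed) and 0.04 (fasted). Member means ran from 46.9 to 64780.3 without and from 75.2 to 70589 normalized counts with tetracycline, with 2 libraries per side; how far either limits the calls was not tested.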
